A study of Homo sapiens with 12 samples.

Results

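Mitochondrial complex I mRNAs are the 7 mRNAs with which the mitochondrial genome encodes subunits of NADH dehydrogenase, the first enzyme of the respiratory chain: MT-ND1, MT-ND2, MT-ND3, MT-ND4L, MT-ND4, MT-ND5 and MT-ND6. They were taken by name from the chromosome MT rows of the gene table, and all 7 were found among 58735 genes, 37 of which lie on the mitochondrial genome. RNA-Seq was performed on HEK293T, a transformed human embryonic kidney cell line labelled wild type, in 4 groups of 3 libraries. The groups were DMSO (vehicle), 4SU (4-thiouridine, a photoactivatable uridine analog that cells build into new RNA, 100 µM for 16 h), CEP (the clickable electrophilic purine AHL-Pu-1, a probe that reacts with cysteines of proteins, 25 µM for 1 h) and CEP+4SU. The treatment protocol, which is given for every sample, also holds irradiation at 312 nm before CEP. Since that shared text describes the 4SU and CEP steps as well, the labels do not show whether the DMSO libraries were irradiated. The design text calls the replicates independent without naming cultures or days, so p-values measure the spread between these libraries.

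The family was selected on earlier results of these same libraries in which MT-ND1 and MT-ND2 were lower with CEP. Levels, fold changes and counts for every comparison with CEP are therefore given as a description with no test, and nothing is read from their counts of calls. The response to 4SU did not define the choice, but its comparisons share libraries with those that did. 4SU against DMSO reuses the DMSO libraries, CEP+4SU against CEP reuses the CEP libraries, and the interaction contains the difference of CEP against DMSO itself. These 3 are given as values and counts with no p for a member, and nothing is read from their signs. The 4SU difference averaged over CEP, which weighs DMSO and CEP libraries alike and so does not contain the difference between them, was tested, as were shares and ratios within the family.

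Complex I passes electrons from NADH to ubiquinone and pumps protons across the inner mitochondrial membrane, and its mitochondrially encoded subunits form most of the membrane arm, while the nucleus encodes all other subunits. Both strands of the mitochondrial genome are transcribed as long precursors, from which mRNAs are released mainly by excision of the tRNAs between them. All members but MT-ND6 come from the heavy-strand precursor, which also carries the other mitochondrial mRNAs.

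All positions below are on GRCh38 with sequences from the GENCODE 29 transcripts, which match the gene identifiers of the table. MT-ND1 (ENSG00000198888) lies at chrM:3307-4262, MT-ND2 (ENSG00000198763) at chrM:4470-5511, MT-ND3 (ENSG00000198840) at chrM:10059-10404, MT-ND4L (ENSG00000212907) at chrM:10470-10766, MT-ND4 (ENSG00000198886) at chrM:10760-12137 and MT-ND5 (ENSG00000198786) at chrM:12337-14148, all on the plus strand. MT-ND6 (ENSG00000198695) lies on the minus strand at chrM:14149-14673 and is the only member there. Each gene is annotated as a single exon, from 297 bases (MT-ND4L) to 1812 bases (MT-ND5). The first 30 bases of each are shown because they identify the members and their start codons, which are in capitals.
MT-ND1: ATAcccatggccaacctcctactcctcatt
MT-ND2: ATTaatcccctggcccaacccgtcatctac
MT-ND3: ATAaacttcgccttaattttaataatcaac
MT-ND4L: ATGcccctcatttacataaatattatacta
MT-ND4: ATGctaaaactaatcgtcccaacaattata
MT-ND5: ATAaccatgcacactactataaccacccta
MT-ND6: ATGatgtatgctttgtttctgttgagtgtg

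The last 30 bases are shown because the members differ in how the reading frame ends, with the letters at the stop in capitals.
MT-ND1: tacaatctccagcattccccctcaaaccTA
MT-ND2: ctatctccccttttatactaataatcttaT
MT-ND3: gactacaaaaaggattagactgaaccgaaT
MT-ND4L: gtacataacctaaacctactccaatgcTAA
MT-ND4: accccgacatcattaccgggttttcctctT
MT-ND5: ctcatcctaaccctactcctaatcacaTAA
MT-ND6: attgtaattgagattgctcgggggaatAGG
The annotated MT-ND1 ends 2 bases into its stop codon, and MT-ND2, MT-ND3 and MT-ND4 end 1 base into it. In such mRNAs the poly(A) tail supplies the missing bases of UAA. MT-ND4L and MT-ND5 carry a complete UAA, and MT-ND6 ends in AGG. MT-ND6 is also the odd one out in composition, with 37.7% U and 35.6% G against 23.8% to 30.3% U and 9.5% to 12.1% G in the other 6. The mRNA of MT-ND6 is known to lack a regular poly(A) tail, and these libraries were made from RNA captured on poly-T beads. The part of that capture in its values was not tested.

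MT-ND4L and MT-ND4 are carried on a single mRNA with 2 reading frames. Their annotations share 7 bases, shown in capitals within chrM:10740-10786, where the start codon of MT-ND4 precedes the stop codon of MT-ND4L.
Junction of MT-ND4L and MT-ND4: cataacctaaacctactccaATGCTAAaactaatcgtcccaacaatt

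The libraries held 16569114 to 24644734 counts on genes. Mitochondrial genes took 0.967% to 1.65% of them and the 7 members together 0.249% to 0.481%. The lowest count of any member in any library was 2012, so the counting error of a single value was at most 2.23%. KRT8, KRT18 and VIM, which mark this line, were present at group means of 10.9 to 48.3 FPKM, and PAX2 at 0.981 to 1.32 FPKM. Of 5 markers of other cell types, COL1A1 passed the filter on low counts, at group means of 3.18 to 4.17 FPKM, and PTPRC, ALB, PECAM1 and HBB did not.

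Levels are given as FPKM, fragments per kilobase of gene scaled to the size of the library. This scale divides by the full gene length. How well it compares genes as short as MT-ND4L (297 bases) and MT-ND3 (346 bases) with longer ones was not tested. In DMSO the members ran from MT-ND3 at 1100 ± 114.4 FPKM (SD, n = 3), through MT-ND2 at 952.4 ± 64.6, MT-ND4 at 945.2 ± 77.1, MT-ND4L at 857.0 ± 116.9 and MT-ND1 at 675.3 ± 105.9, to MT-ND6 at 407.0 ± 33.7 and MT-ND5 at 363.5 ± 32.3. Only one step in this order, from MT-ND1 to MT-ND6, separated neighbours whose FPKM did not overlap between libraries, so MT-ND5 and MT-ND6 formed the low end. Within each DMSO library, MT-ND3 was above MT-ND2 (3 of 3), MT-ND4 above MT-ND4L (3 of 3) and MT-ND4L above MT-ND1 (3 of 3), while MT-ND2 was above MT-ND4 in 2 of 3, with a mean log2 ratio of 0.01 (SD 0.0205).

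MT-ND1, a core membrane subunit next to the ubiquinone site, stood at 567.5, 679.3 and 779.2 FPKM in DMSO and at 590.8, 495.7 and 574.1 FPKM in 4SU. With CEP it stood at 468, 370.2 and 269.5 FPKM, and with CEP+4SU at 351.1, 424.6 and 408 FPKM. All 6 libraries with CEP lay below all 6 without it. The log2 fold change on the count scale was -0.87 (SE 0.146) for CEP against DMSO and -0.48 (SE 0.146) for CEP+4SU against 4SU.

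MT-ND2, a proton-pumping subunit of the membrane arm, followed the same course. It stood at 884.9, 958.6 and 1014 FPKM in DMSO and at 855.5, 773 and 857.4 FPKM in 4SU. With CEP the values were 631.4, 506.5 and 413.4 FPKM, and with CEP+4SU 536, 544 and 541.2 FPKM. The groups with and without CEP did not overlap here either, and the CEP+4SU libraries lay closer together (SD 4.04 FPKM) than those of CEP alone (SD 109.4 FPKM). The log2 fold change was -0.88 (SE 0.106) for CEP against DMSO and -0.61 (SE 0.106) for CEP+4SU against 4SU.

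MT-ND3, a small subunit at the joint of the membrane and peripheral arms, had the widest range of the members over the 12 libraries as a ratio (3.53), with its lowest value in CEP replicate 2. It stood at 973.7, 1131 and 1196 FPKM in DMSO and at 1029, 850.9 and 1197 FPKM in 4SU. In CEP the second library held 339.4 FPKM, against 806.8 and 822.5 FPKM in the other two. The CEP+4SU libraries held 774.3, 941.7 and 719.2 FPKM and overlapped those of 4SU. The log2 fold change of CEP against DMSO was -0.74 (SE 0.213) with all libraries and -0.43 without CEP replicate 2, while CEP+4SU against 4SU gave -0.33 (SE 0.212). CEP replicate 2 also stood apart elsewhere, with 22230 genes detected against 24546 and 24954 in the other CEP libraries. Some nuclear complex I genes, picked after their values were seen, were low in it too: NDUFA1 had 23.2 CPM (counts scaled to library size) against 67 and 78.7, and NDUFA11 had 5.54 CPM against 15.5 and 15.1.

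MT-ND4L, a small membrane subunit, had a difference near 0 with CEP. It stood at 725.7, 895.6 and 949.7 FPKM in DMSO, at 872.1, 952.6 and 660.7 FPKM in CEP, at 855.1, 892.3 and 805.4 FPKM in 4SU, and at 622.6, 953.4 and 874.2 FPKM in CEP+4SU. All 4 groups overlapped. Its log2 fold change was -0.05 (SE 0.139) both for CEP against DMSO and for CEP+4SU against 4SU.

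MT-ND4, a proton-pumping subunit read from the same mRNA as MT-ND4L, stood at 867.1, 947.2 and 1021 FPKM in DMSO and at 871.8, 742.8 and 843.8 FPKM in 4SU. It held 856.1, 887.7 and 578.7 FPKM in CEP and 685, 789.5 and 897.6 FPKM in CEP+4SU. The groups overlapped in both comparisons with CEP. The log2 fold change was -0.28 (SE 0.125) for CEP against DMSO and -0.04 (SE 0.125) for CEP+4SU against 4SU.

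MT-ND5, the proton-pumping subunit at the far end of the membrane arm, stood at 335.1, 356.7 and 398.6 FPKM in DMSO and at 345.1, 334.8 and 356.5 FPKM in 4SU. With CEP it held 291.9, 279.7 and 229.8 FPKM, and with CEP+4SU 262.7, 317.2 and 328.2 FPKM. Every library with CEP lay below every library without it, by a narrow margin in the presence of 4SU. The log2 fold change was -0.44 (SE 0.0961) for CEP against DMSO and -0.18 (SE 0.0959) for CEP+4SU against 4SU.

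MT-ND6, a membrane subunit encoded on the opposite strand, stood at 400.9, 376.9 and 443.4 FPKM in DMSO and at 400.7, 327.5 and 395.5 FPKM in 4SU. It held 331.8, 307.4 and 224.3 FPKM in CEP and 251.8, 348.5 and 322.7 FPKM in CEP+4SU. The CEP libraries lay below those of DMSO, and the CEP+4SU libraries overlapped those of 4SU. The log2 fold change was -0.50 (SE 0.131) for CEP against DMSO and -0.28 (SE 0.131) for CEP+4SU against 4SU. The labels and methods name both dUTP and dTTP in second-strand synthesis, for directional and non-directional libraries, without saying which was used here, and do not give the strand setting of the counting. Reads from MT-ND6 and from RNA of the opposite strand may therefore not have been told apart.

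All 7 fold changes were below 0 in each comparison with CEP when every library was used. Leaving out 1 library, MT-ND4L ran from -0.16 to 0.09 for CEP against DMSO and from -0.19 to 0.08 for CEP+4SU against DMSO. It ran from -0.18 to 0.09 for CEP+4SU against 4SU and from -0.11 to 0.02 for CEP averaged over 4SU. MT-ND4 ran from -0.16 to 0.03 for CEP+4SU against 4SU. The counts that follow describe the selected values and are no test of the members. With edgeR's quasi-likelihood fit and Benjamini-Hochberg adjustment at 0.05, the number of members past the threshold was 2 for CEP against DMSO (MT-ND1 and MT-ND2), where 0.0564% of the 17729 genes tested passed. It was 2 for CEP+4SU against DMSO, the same members, where 1.64% of genes passed. It was 1 for CEP+4SU against 4SU (MT-ND2), where 0.0451% passed, and became 0 whichever of those 6 libraries was left out. It was 2 for CEP averaged over 4SU (MT-ND1 and MT-ND2), where 0.276% passed. MT-ND1 was no longer counted for CEP against DMSO without any 1 of DMSO replicates 2 and 3 and CEP replicates 2 and 3, nor for CEP+4SU against DMSO without DMSO replicate 2 or 3 or CEP+4SU replicate 3. Without CEP replicate 1, the counts rose to 5 for CEP against DMSO and 5 for CEP averaged over 4SU, and without CEP+4SU replicate 1 the latter was 4. Calls over all genes moved too on leaving out 1 library, from 4 to 1214 for CEP against DMSO and from 21 to 2171 for CEP averaged over 4SU. Fold changes of CEP+4SU against DMSO ran from -0.82 (MT-ND2) and -0.78 (MT-ND1) to -0.07 (MT-ND4L). The groups of CEP and DMSO did not overlap for 5 members, with CEP lower, as for 10.1% of all genes. CEP+4SU lay wholly below 4SU for 3 members (MT-ND1, MT-ND2 and MT-ND5), as for 6.01% of all genes. For these 3, every library with CEP also lay below every library without it, in DMSO and 4SU alike, as for 0.513% of all genes. The comparisons with DMSO share their control libraries. A lower level in every cell and a lower level in some of the cells cannot be told apart in these bulk libraries.

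The differences with CEP were unequal along the genome. The averaged log2 fold changes, in genome order, were -0.67 (SE 0.103) for MT-ND1, -0.74 (SE 0.0751) for MT-ND2, -0.53 (SE 0.151) for MT-ND3, -0.05 (SE 0.0986) for MT-ND4L, -0.16 (SE 0.0887) for MT-ND4, -0.31 (SE 0.0679) for MT-ND5 and -0.39 (SE 0.0924) for MT-ND6. The order of size did not follow the order of position, since the smallest differences lay in the middle of the row. The other 6 mitochondrial mRNAs, which encode subunits of complex III, complex IV and ATP synthase, gave a median log2 fold change of -0.34 for CEP against DMSO, beside -0.50 for the members and -0.00468 over all genes. For CEP+4SU against 4SU the medians were 0.03, -0.28 and 0.00307. Of those 6, 0 passed the threshold with the main edgeR fit in either comparison, and 1 and 0 passed with DESeq2. At an unadjusted p under 0.05 with edgeR there were 4 and 0, beside 3289 and 1399 of the 17729 genes tested. For CEP against DMSO, up to 4 passed in other settings or on leaving out 1 library. MT-CO2, a core subunit of cytochrome c oxidase, had a log2 fold change of -0.39 (SE 0.111) for CEP against DMSO, and MT-CO1, the catalytic subunit of that oxidase, -0.09 (SE 0.119).

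The members were next compared with each other as shares of their summed FPKM, a measure that does not depend on the scaling of a library. In DMSO, MT-ND3 took 20.8% ± 0.358 (SD, n = 3), MT-ND2 18% ± 0.573, MT-ND4 17.9% ± 0.337, MT-ND4L 16.1% ± 0.775, MT-ND1 12.7% ± 0.747, MT-ND6 7.71% ± 0.692 and MT-ND5 6.86% ± 0.187. The share of MT-ND2 was 17% to 18.6% in the libraries without CEP and 12.6% to 15.4% in those with it. MT-ND1 went from 11.2% to 13.4% without CEP to 8.42% to 11% with it. For both, the libraries with and without CEP did not overlap. MT-ND4L was on average 4.45 percentage points higher with CEP and MT-ND4 2.95 points higher, and both overlapped between the libraries with and without CEP. Shares have a fixed sum, so a fall of some members raises the shares of others. Mean FPKM was 857.0 in DMSO and 828.5 in CEP for MT-ND4L, and 945.2 and 774.1 for MT-ND4. The share of MT-ND6 moved by -0.01 points and that of MT-ND5 by 0.40 points.

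Ratios between members were described as well. The log2 ratio of MT-ND2 to MT-ND1 in FPKM lay between 0.36 and 0.64 in all 12 libraries and differed by -0.07 with CEP. By contrast, the log2 ratio of MT-ND2 to MT-ND4 lay between -0.03 and 0.06 without CEP and between -0.81 and -0.35 with it. MT-ND4 and MT-ND4L, which share an mRNA, gave log2 ratios of -0.27 to 0.26. Over the 12 libraries, the SD of the log2 ratio was lowest for MT-ND1 with MT-ND2 (0.105) and for MT-ND5 with MT-ND6 (0.109), and highest for MT-ND3 with MT-ND4L (0.546). Within groups, the SD was lowest for MT-ND4 with MT-ND5 (0.104). MT-ND1 with MT-ND2 and MT-ND5 with MT-ND6 both had 0.11 there, and MT-ND4 with MT-ND6 had 0.111. The scaling of a library cancels in these ratios. Shared treatment enters the values over 12 libraries, among them the difference with CEP on which MT-ND1 and MT-ND2 were chosen.

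The effect of 4SU on the members was then examined. Averaged over CEP, 0 of 7 members passed the threshold with edgeR, where 0.558% of all genes did, and adjusted p-values ran from 0.728 to 0.96. No member reached an unadjusted p under 0.05 there, and DESeq2 and limma also called 0. The log2 differences ran from -0.10 (95% interval -0.32 to 0.11) for MT-ND1 to 0.10 (-0.22 to 0.41) for MT-ND3, which became -0.05 without CEP replicate 2. MT-ND5, with the narrowest interval, stood at 0.05 (-0.09 to 0.19). MT-ND6, the member with the highest share of U, stood at -0.02 (-0.21 to 0.18).

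The separate 4SU comparisons are given as values. For 4SU against DMSO, 0 of 7 members were past the threshold with edgeR, where 0.00564% of all genes were. The log2 fold changes were -0.30 (95% interval -0.60 to 0.01) for MT-ND1, -0.21 for MT-ND2 and for MT-ND4, -0.13 for MT-ND6, -0.11 for MT-ND3, -0.08 (-0.28 to 0.12) for MT-ND5 and -0.02 (-0.31 to 0.27) for MT-ND4L. MT-ND2 alone had all 4SU libraries below all DMSO libraries, as did 10.3% of genes. In the presence of CEP, adding 4SU gave log2 fold changes from -0.02 (MT-ND4L) to 0.30 (MT-ND3), and the latter became -0.01 without CEP replicate 2. Again 0 of 7 members were past the threshold, where 0.00564% of genes were, and for 0 members did CEP+4SU lie wholly above CEP, as for 5.61% of genes. MT-ND5 stood at 0.18 (-0.02 to 0.38).

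The interaction compares the CEP difference in the presence and absence of 4SU. Because the members were chosen on a low value with CEP, a positive interaction is favoured by the choice itself, and its sign is not read. The log2 values were 0.41 (95% interval -0.22 to 1.04) for MT-ND3, 0.39 (-0.04 to 0.82) for MT-ND1, 0.27 (-0.04 to 0.58) for MT-ND2, 0.26 (-0.03 to 0.54) for MT-ND5 and -0.0042 (-0.42 to 0.41) for MT-ND4L. The value of MT-ND3 was 0.09 without CEP replicate 2. With edgeR, 0 members and 0% of all genes were past the threshold, with 467 genes at an unadjusted p under 0.05 and 0 calls by DESeq2.

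No share among the members differed with 4SU beyond the spread between libraries. In an exact two-sided permutation test within the libraries with and without CEP (400 rearrangements, smallest possible p 0.005), the lowest p was that of MT-ND5, whose share was 0.37 percentage points higher with 4SU (exact p = 0.07, adjusted over the 7 shares 0.49). For the other 6 members, the adjusted exact p-values ran from 0.831 to 0.95. Among the 6 ratios tested in this way, MT-ND5 to MT-ND4 was higher with 4SU by 0.13 on the log2 scale (exact permutation p = 0.045, adjusted over the 6 ratios 0.27), and the other 5 had an adjusted p of 0.79.

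The nuclear genes of the same complex were examined beside the members. Of 37 nuclear subunits, 0 passed the threshold in any of the 8 comparisons with the main edgeR fit. Their median log2 fold change was -0.11 for CEP against DMSO, -0.01 for CEP+4SU against 4SU, -0.12 for 4SU against DMSO and -0.04 for CEP+4SU against CEP. At an unadjusted p under 0.05 there were 0 to 7 of them, depending on the comparison, and DESeq2 called 0 to 2. For CEP against DMSO, up to 5 passed in other settings and up to 3 on leaving out 1 library. The highest count at an unadjusted p under 0.05 with edgeR, 7, was found for both CEP and CEP+4SU against DMSO. There, 3289 and 3792 of the 17729 genes tested were at that level. The extremes for CEP against DMSO were NDUFV2, an iron-sulfur subunit of the NADH-oxidising module, at -0.79 (SE 0.533), and NDUFC2, an accessory subunit, at 0.29. NDUFV2, with 6 to 42 counts per library, was imprecise in every comparison and reached 0.74 (SE 0.538) for CEP+4SU against CEP. NDUFA7, another accessory subunit, with 7 to 32 counts per library, stood at -0.90 (SE 0.539) in that comparison. Both genes were thus near the low end of what was counted.

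Of 16 assembly factors, which help to build the complex without staying in it, NDUFAF3 passed the threshold. It was lower with 4SU averaged over CEP, with a log2 fold change of -0.46 (SE 0.0872, edgeR adjusted p = 0.0208), and lower in CEP+4SU than in DMSO, at -0.66 (SE 0.123, edgeR adjusted p = 0.0211). Its level was 50.6 ± 3.46 FPKM (SD, n = 3) in DMSO, 44.4 ± 4.94 in CEP, 37.1 ± 6.49 in 4SU and 32.1 ± 5.00 in CEP+4SU. The call averaged over CEP was lost without any 1 of DMSO replicates 1, 2 and 3 and 4SU replicates 2 and 3, and with limma on FPKM. The call against DMSO was lost without any 1 of DMSO replicates 1, 2 and 3 and CEP+4SU replicates 2 and 3, and with limma. NDUFAF3 overlaps a gene of the opposite strand, DALRD3, so the limit on strand named for MT-ND6 holds for it too. The other 15 factors passed in no comparison with the main edgeR fit. In other settings, up to 3 of the 16 passed for CEP+4SU against DMSO. Of 21 factors that transcribe, process, stabilise or degrade mitochondrial RNA, 0 passed in any comparison with the main edgeR fit and 0 to 2 with DESeq2. For CEP averaged over 4SU, up to 4 passed in other settings or on leaving out 1 library. With edgeR, 0 to 7 were at an unadjusted p under 0.05. The 7 were found for CEP+4SU against DMSO, where 3792 of the 17729 genes tested were at that level. FASTK, an RNA-binding protein needed for MT-ND6 mRNA, had the lowest value for CEP against DMSO at -0.44 (SE 0.113), and LRPPRC, which stabilises mitochondrial mRNAs, the highest at 0.25 (SE 0.0818). SLIRP, the partner of LRPPRC, stood lowest for 4SU against DMSO at -0.29 (SE 0.116), and POLRMT, the mitochondrial RNA polymerase, lowest for CEP+4SU against 4SU at -0.25 (SE 0.134).

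Copies of the members in the nuclear genome can share reads with them. MT-ND2 was the member with most overlap, as 140 of its 893 windows of 150 bases (15.7%) occur unchanged in an annotated nuclear pseudogene. MT-ND1 had 9 of 807 such windows (1.12%), and the other 5 members had 0. The copy concerned is MTND2P28 (chr1:629640-630683), which differs from MT-ND2 at 19 of 1044 aligned positions. It had 835, 833 and 1264 counts in DMSO, 502, 511 and 283 in CEP, 703, 555 and 652 in 4SU, and 391, 423 and 402 in CEP+4SU. Its counts thus moved in the same direction as those of MT-ND2, and all 34 copies together made up 3.12% to 5.37% of the sum of MT-ND2 and its copies. For each of the other members the copies made up at most 0.445%. With these counts added, the log2 fold change for CEP against DMSO was -0.88 for MT-ND2 and -0.87 for MT-ND1, as without them. Because reads that fit both places could have been split, values of MT-ND2 and MTND2P28 carry that uncertainty.

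The genes outside the family whose pattern over the 12 libraries was most like each member's were found by the SD of the difference in log2 CPM. The 7 members were left out, which left 17722 genes. By the same measure, MT-ND1 and MT-ND2 were closer to each other (SD 0.105) than to any gene named here. MT-ND6 was likewise closer to MT-ND5 (0.109). MT-ND4 was nearest to MT-CYB (SD 0.0854), MT-CO2 (0.0883) and MT-CO1 (0.0965), which are mitochondrial mRNAs of complexes III and IV, and its own SD was 0.221. MT-ND4L was nearest to MT-CO1 (0.128). MT-ND2 was nearest to the tubulin genes TUBB4B (0.135) and TUBB (0.163) and to GAS1 (0.194), against an own SD of 0.426. MT-ND1 was likewise nearest to TUBB (0.212) and TUBB4B (0.215), followed by MTND2P28 (0.217). MT-ND3 was nearest to NOG (0.167), MT-ND5 to PI4KAP2 (0.0914) and MT-ND6 to ZNF707 (0.132), ahead of MT-CO2 (0.142) and MT-CYB (0.147). These likenesses are descriptions over 12 libraries that share their treatments. The difference with CEP, on which MT-ND1 and MT-ND2 were chosen, enters them, so no relation between genes is read from them.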

How the data were processed

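PolyA RNA of 12 HEK293T libraries was sequenced as paired ends. Per the methods, the authors filtered out adapter-bearing, poly-N and low-quality reads, used HISAT2 2.0.5 to align to GRCh38 and featureCounts 1.5.0-p3 to count per gene, and the deposited counts are not normalized. Treatment of overlapping genes, multimapping reads and strand is not given in the sources used here. The deposited FPKM values were derived by the authors from those counts, per gene length and adjusted library size. DESeq2 and GATK 4.1.1.0 also appear in the submitters' processing notes. A table of the authors' group means was not used. Labels give the CEP concentration in different units in different places, and that of the design text is printed.

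Groups follow the sample labels. In R 4.3.3, edgeR 4.0.16 (filterByExpr with minimum count 10 and minimum total 15, TMM, 4 groups in a quasi-likelihood model of 12 libraries, prior counts of 0.125 in fold changes and 2 in log2 CPM) gave fold changes, SEs, 95% intervals and p-values adjusted by Benjamini-Hochberg over 17729 genes, at a threshold of 0.05. All 7 members passed the filter. The common biological coefficient of variation was 0.114. Shares and ratios were tested by exact permutation of the 4SU label within libraries with and without CEP. Tests of 4SU against DMSO, of CEP+4SU against CEP and of the interaction had been planned, but their p-values for members are not printed because these comparisons share libraries with those on which the members were chosen. Each fit was tested on simulated data. Alternatives were DESeq2 1.42.0, limma 3.58.1 on log2(FPKM + 1) and log2(FPKM + 0.1), other scalings and filters, a replicate block, fewer libraries, and added pseudogene counts. Members, lists and comparisons were chosen with earlier results of these data known. Named genes are the members and the genes of each list that passed or had the highest or lowest fold change. For each member, up to 3 genes outside the family with the smallest SD of the log2 CPM difference are also named. MT-CO1 and MT-CO2 in the account of fold changes were chosen after their values were seen.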

Additional observations from a re-analysis of the deposited data

How the results depend on the processing

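The count of 0 members for the comparisons with 4SU and for the interaction held in all 74 alternatives run. In many of these few genes passed at all, so the count could hardly change. Leaving out 1 library, the calls over all genes were 0 for 4SU against DMSO and 0 to 1 for the interaction. They were 1 to 6 for CEP+4SU against CEP and 6 to 125 for 4SU averaged over CEP. Counts of members in the comparisons with CEP changed in 34 of 69 alternatives, and the cause was not tested. For CEP against DMSO (2 members), DESeq2 gave 4, no filter on low counts 6, limma on log2(FPKM + 1) and on log2(FPKM + 0.1) 0, and a fit of those libraries alone 1. For CEP+4SU against DMSO (2), no filter gave 6, both limma fits 0 and those libraries alone 4. For CEP+4SU against 4SU (1), no filter gave 3 and both limma fits 0. For CEP averaged over 4SU (2), DESeq2 gave 5, no filter 6, and limma 0 with a pseudocount of 1 and 1 with 0.1. Over all genes, the number called ranged over these settings from 0 to 94 for 4SU against DMSO (1), 17 to 336 for 4SU averaged over CEP (99), 0 to 102 for CEP+4SU against CEP (1), 0 to 15 for the interaction (0), 0 to 780 for CEP against DMSO (10), 0 to 1667 for CEP+4SU against DMSO (290), 4 to 65 for CEP+4SU against 4SU (8) and 7 to 2269 for CEP averaged over 4SU (49).

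With the replicate block, the counts were 5 for CEP against DMSO, 3 for CEP+4SU against DMSO, 1 for CEP+4SU against 4SU and 5 for the CEP average, with 0 in the 4SU comparisons and the interaction. The ranges of calls over all genes given above include this setting. Libraries with the same number correlated at -0.0469 to 0.141 in their deviations from the group means, so the numbers were not taken to pair them.

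Leaving out 1 library gave 1 to 5 members for CEP against DMSO (5 without CEP replicate 1, and 1 without any of CEP replicates 2 and 3 and DMSO replicates 2 and 3). It gave 1 to 2 for CEP+4SU against DMSO (1 without CEP+4SU replicate 3 or either of DMSO replicates 2 and 3), 0 to 0 for CEP+4SU against 4SU whichever library was left out, and 2 to 5 for CEP averaged over 4SU (5 without CEP replicate 1 and 4 without CEP+4SU replicate 1). Over all genes, the calls in these fits ran from 4 to 1214 for CEP against DMSO and from 14 to 812 for CEP+4SU against DMSO. They ran from 0 to 5 for CEP+4SU against 4SU and from 21 to 2171 for CEP averaged over 4SU.

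Besides the signs of MT-ND4L and MT-ND4 with CEP given above, signs near 0 turned in the 4SU comparisons, with no member past the threshold there. With upper-quartile scaling, MT-ND4L in 4SU against DMSO became 0.01 and MT-ND6 averaged over CEP 0.0039. With library size alone, MT-ND4L became 0.04 in 4SU against DMSO, 0.02 averaged over CEP and 0.01 in CEP+4SU against CEP, and MT-ND6 averaged over CEP became 0.03. Leaving out 1 library, the log2 fold changes for 4SU against DMSO ran from -0.23 to 0.02 for MT-ND3 and from -0.12 to 0.07 for MT-ND4L. Averaged over CEP, they ran from -0.20 to 0.0034 for MT-ND1, -0.15 to 0.01 for MT-ND2, -0.05 to 0.19 for MT-ND3, -0.09 to 0.06 for MT-ND4L, -0.0041 to 0.10 for MT-ND5 and -0.10 to 0.05 for MT-ND6. For CEP+4SU against CEP, they ran from -0.10 to 0.29 for MT-ND1, -0.08 to 0.22 for MT-ND2, -0.01 to 0.49 for MT-ND3, -0.17 to 0.14 for MT-ND4L, -0.15 to 0.14 for MT-ND4 and -0.06 to 0.22 for MT-ND6. The interaction of MT-ND4L ran from -0.15 to 0.15.

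The 4SU difference in the share of MT-ND4L became 0.01 points among all 13 mitochondrial mRNAs and 0.03 on counts not divided by length. Leaving out 1 library, share differences ran from -0.63 to 3.47 for MT-ND3, -0.74 to 0.79 for MT-ND4L, -1.53 to 0.04 for MT-ND4 and -0.15 to 0.21 for MT-ND6. On TMM-scaled counts per kilobase, 27 of 28 group levels stayed within 1 SD of their FPKM value, and that of MT-ND2 in CEP+4SU (540.4 ± 4.04 FPKM) moved by more than its SD. With 3 libraries per group, the spread between libraries and not counting limits the precision of the members' values.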
